A study of Mus musculus with 136 samples.

Results

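Whether the step from 5–6 to 7–9 somite pairs changed RNA levels in the same way in the mouse embryo and in its visceral yolk sac was examined in normal pregnancies of the NOD strain at gestational day 8.5. The measure is the interaction of tissue with stage, that is, the log2 change from the earlier to the later stage in yolk sacs minus the same change in embryos. A positive interaction means that a gene moved further up, or less far down, in the yolk sac than in the embryo. The 66 libraries were chosen by their labels alone from the 136 libraries of the series: all embryos and visceral yolk sacs of normoglycemic NOD dams, leaving out 2 duplicate libraries of such concepti. By label they came from 33 concepti of 10 litters, each conceptus giving an embryo and a yolk sac, with 17 concepti of 10 litters at 5–6 somite pairs and 16 concepti of 7 litters at 7–9 somite pairs. Of the litters, 7 held both stages and 3 held the earlier stage only. Somite pairs had been counted in the embryo, and a yolk sac carries the stage of the embryo that shares its label. There were 11 concepti with 5 pairs, 6 with 6, 7 with 7, 4 with 8 and 5 with 9. NOD is an inbred strain in which females become diabetic spontaneously, so that these groups share the strain and a chow diet, and the dams used here had blood glucose readings of 105 to 164 mg/dl. By the labels of the embryos there were 9 males and 8 females with 5–6 pairs, and 9 males and 7 females with 7–9 pairs. For comparison, 66 libraries from 33 concepti of 12 litters of spontaneously diabetic NOD dams, with readings of 423 to 595 mg/dl, were taken through the same contrast, with 17 and 16 concepti in the same stage classes. Litter D24M15 gave more of the later diabetic concepti than any other litter, so the diabetic contrast leans on its dam. Concepti of 1 litter share a dam, and p-values treat them as separate samples.

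The visceral yolk sac surrounds the embryo and is built of an outer visceral endoderm, which absorbs nutrients from its surroundings and secretes serum proteins, and an inner mesoderm, in which the blood islands and the first vessels form. Primitive erythroid cells arise in these blood islands, make embryonic globins, and enter the vessels of the embryo once the heart tube has begun to beat during the early somite stages. In the embryo, the same days see the segmentation of the paraxial mesoderm, the folding of the neural plate and the looping of the heart.

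Counts of molecules per library ranged from 1033350 to 5658850. Marker genes separated the tissues. The sum over 10 visceral endoderm markers was between 15531 and 52019 normalized counts (counts divided by DESeq2 size factors) in the 33 yolk sacs and between 93.1 and 1406 in the 33 embryos, and all 10 embryo proper markers were detected in embryos, where their sum was 1073 to 1761. Sums of trophoblast markers in yolk sacs ran from 160 to 1380 normalized counts (median 289) at the earlier stage and from 85.5 to 580 (median 169) at the later. In embryos they were 52.3 to 140 and 63.2 to 104. Decidua, parietal endoderm and allantois sums had yolk sac medians of 29.9, 281 and 41.6, and then of 40.7, 292 and 30.6. The part of these tissues in the stage changes was not tested. A yolk sac at the earlier stage, of conceptus N28M05J, stood apart for heart genes. Its sum of embryo proper markers was 333 normalized counts, against at most 140 in the other earlier yolk sacs. Of this sum, 271 came from Myl7, a heart gene on both lists, and 4 of the 10 markers lay above every other earlier yolk sac. This yolk sac had a sum of 5760 over 32 heart genes, against at most 2299. It was above every other earlier yolk sac for 28 of the 32 heart genes, including the cardiac actin gene Actc1 (848 normalized counts, others 11.8 to 201), while the embryo of the same conceptus had the lowest sum of heart genes of all 33 embryos, 3165. N28M05J was also the only earlier conceptus of its litter. Conceptus N28M07E had an embryo labelled male and a yolk sac labelled female, and the RNA matched each label. Their pairing, and the stage that this yolk sac takes from the embryo, are therefore uncertain. The called interactions are given with and without these concepti, and values of gene lists also without N28M05J where it moves them. Cd74, the invariant chain of class II antigen presentation, had 0 or 1 count in the earlier libraries and medians of 13.5 and 19 counts in later embryos and yolk sacs, with 0 in 2 later embryos and 1 later yolk sac, among them both libraries of conceptus N28M07J, and the class II gene H2-Aa stayed at 2 counts or fewer. In diabetic pregnancies Cd74 likewise had 0 or 1 count in the earlier libraries and medians of 16.5 and 24 counts in later embryos and yolk sacs. The labels name 4 sequencing runs without placing libraries in them, so that a batch that coincides with stage cannot be told apart from it.

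**Figure D1:**
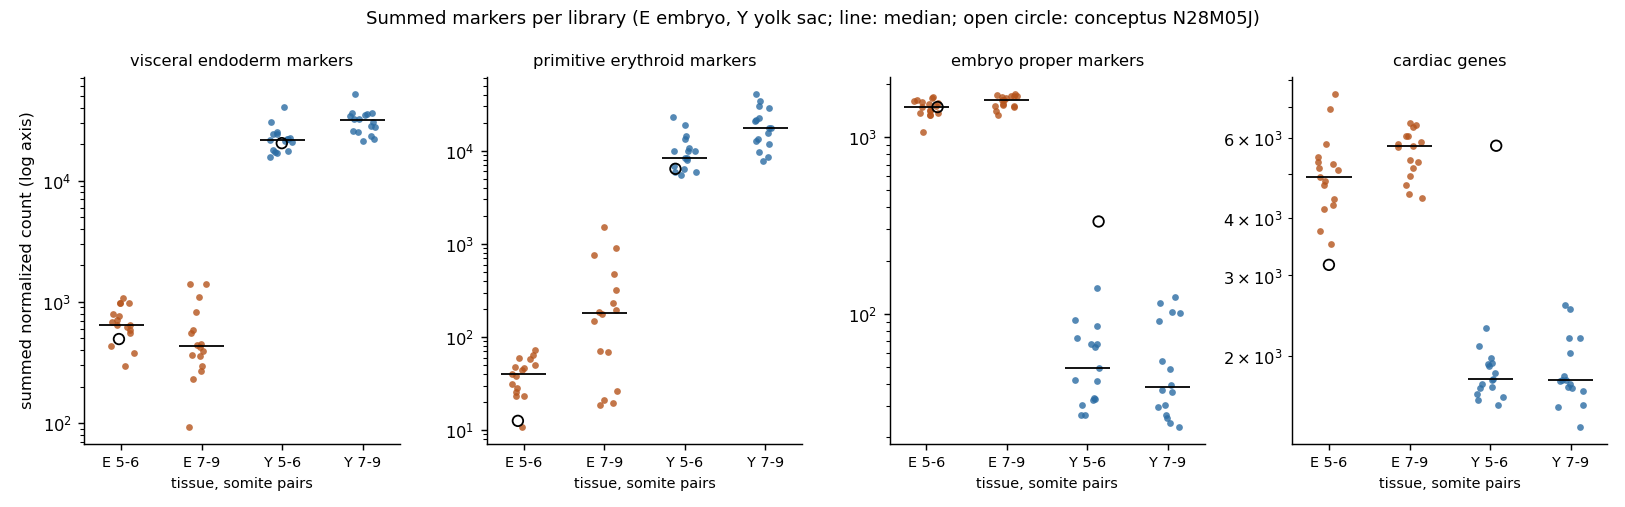
Summed normalized counts (log axis) of visceral endoderm, primitive erythroid, embryo proper and heart markers in every library, by tissue and stage, with the group median as a bar. Embryos and yolk sacs do not overlap for the visceral endoderm and erythroid sums, and the yolk sac of conceptus N28M05J lies above all others for embryo proper (333) and heart genes (5760).

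Of 11507 genes with enough counts to be tested, 1098 (9.54%) changed with stage in embryos, 530 up (4.61%) and 568 down (4.94%), and 1116 (9.7%) changed in yolk sacs, 601 up (5.22%) and 515 down (4.48%) (edgeR quasi-likelihood test, Benjamini-Hochberg adjusted p under 0.05). Both tissues shared 279 of these calls, 25.4% of those in embryos and 25% of those in yolk sacs. Of the shared genes, 136 rose in both, 143 fell in both and 0 moved in opposite directions. The interaction itself passed the same threshold for 5 genes (0.0435%), 2 with a positive value (0.0174%) and 3 with a negative one (0.0261%). DESeq2 called 40 (0.348%), including these 5. At an unadjusted p under 0.05 there were 1390 genes (12.1%), 549 positive and 841 negative. The standard error of the interaction was 0.19 log2 units at the median, and its 95% confidence interval lay within a 2-fold difference in either direction for 9767 genes (84.9%), and for 269 of the 279 shared genes (96.4%). Among the 819 genes called in embryos and not in yolk sacs it lay within 2-fold for 646 (78.9%), and among the 837 called in yolk sacs and not in embryos for 648 (77.4%), so that a call in 1 tissue alone did not show a difference between them. The stage changes had a correlation of r = 0.342 across the 11507 genes, which are not independent replicates.

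Genes that rose in both tissues, chosen after their values were seen as those with the largest smaller change, included the zeta and epsilon globins Hba-x and Hbb-y, the endothelial lectin Clec14a (up by 1.15 in embryos and 1.11 in yolk sacs, all on the log2 scale), the fibronectin receptor subunit Itga5, the fibrillar collagen Col3a1 (0.84 and 0.88), the matrix protein Postn (1.11 and 0.75) and the glycolytic enzyme Gapdh. Bbc3, a proapoptotic BH3 protein (Puma), fell by 0.71 in embryos and by 0.88 in yolk sacs, and Nop10, a small nucleolar ribonucleoprotein subunit, fell by 0.74 and 0.67. For Col3a1 the interaction was 0.04 ± 0.35 (SE), with a 95% interval that stayed within 2-fold.

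**Figure D2:**
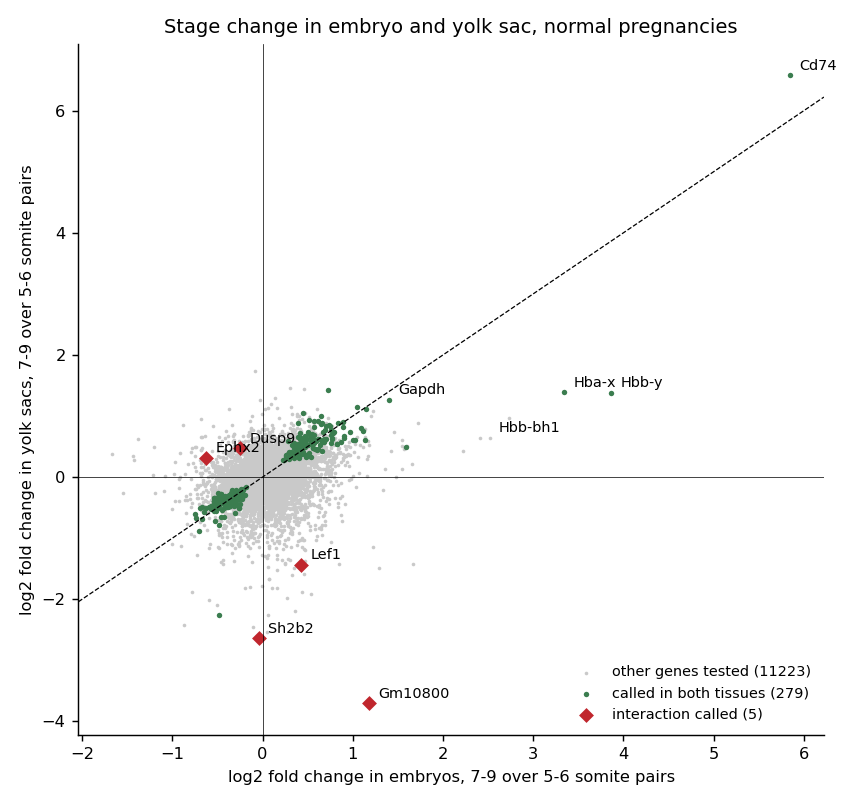
Log2 change from 5–6 to 7–9 somite pairs in embryos (horizontal axis) and in yolk sacs (vertical axis) for 11507 genes, with genes called in both tissues and the 5 genes with a called interaction marked. The genes called in both tissues lie in the quadrants of equal direction, 136 up and 143 down, and the 5 called genes lie away from the line of equal change.

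The 5 genes with a called interaction were Dusp9 and Ephx2, positive, and Lef1, Sh2b2 and Gm10800, negative. Dusp9 (chrX:73639419-73643514, plus strand, GRCm38) encodes a dual-specificity phosphatase that inactivates MAP kinases. Its normalized counts in embryos ranged from 88.3 to 194 around a median of 113 at the earlier stage and from 51.5 to 135 around 98.6 at the later stage, and in yolk sacs from 300.2 to 691 around 478 and then from 479 to 948 around 624. All 16 later yolk sacs lay above the earlier median, and 5 of 16 later embryos lay below every earlier embryo. The ratio of yolk sac to embryo went from 3.84 to 6.42. The log2 change was -0.25 ± 0.11 (SE here and below) in embryos (adjusted p = 0.15) and 0.48 ± 0.11 in yolk sacs (adjusted p = 0.0022), and the interaction was 0.73 ± 0.16 (adjusted p = 0.048, edgeR), positive in 7 of 7 litters with both stages.

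Ephx2 (chr14:66084374-66124500, minus strand) encodes the soluble epoxide hydrolase, which opens epoxides of fatty acids. In embryos it ranged from 7.60 to 22.2 normalized counts around 13.8 and later from 3.77 to 18.1 around 9.24, and in yolk sacs from 40.5 to 87.9 around 66.8 and later from 55.1 to 126 around 75.9. Later embryos were mostly low, 14 of 16 below the earlier median, and 11 of 16 later yolk sacs were above theirs. It fell by 0.62 ± 0.17 in embryos (adjusted p = 0.010). In yolk sacs the change was 0.32 ± 0.12 (adjusted p = 0.089), and the interaction was 0.94 ± 0.21 (adjusted p = 0.0495), positive in 7 of 7 litters.

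Lef1 (chr3:131110471-131224356, plus strand) encodes a nuclear partner of beta-catenin in Wnt signalling. In embryos it had 69.3 to 192 normalized counts, median 124, and later 107 to 209, median 163. In yolk sacs it had 0.954 to 20.8, median 6.03, and later 0 to 10.3, median 2.06, with 6 of 16 libraries at 0. The groups overlapped in both tissues, with 14 of 16 later embryos above the earlier median and 15 of 16 later yolk sacs below it. The change was 0.43 ± 0.17 in embryos (adjusted p = 0.088) and -1.44 ± 0.40 in yolk sacs (adjusted p = 0.0070), and the interaction was -1.87 ± 0.43 (adjusted p = 0.048), negative in 7 of 7 litters.

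Sh2b2 (chr5:136218147-136246556, minus strand) encodes an adaptor protein of insulin and other receptor tyrosine kinases. Its groups overlapped in embryos, with a median of 35.3 normalized counts (highest 76.0) and then of 33.7 (highest 56.6) and no library below 18.0. In yolk sacs it went from 0 to 35.3 around 3.15 to 0 to 3.26, with 10 of 16 later libraries at 0. The change was -0.03 ± 0.22 in embryos and -2.64 ± 0.65 in yolk sacs (adjusted p = 0.00044), with an interaction of -2.60 ± 0.69 (adjusted p = 0.048), negative in 7 of 7 litters. Gm10800 (chr2:98666547-98667301, minus strand) is a predicted gene with near-identical copies, such as Gm10801 nearby, between which reads may have been split, so its values are uncertain. It had 1.20 to 32.0 normalized counts around 12.3 in earlier and 1.95 to 108 around 17.9 in later embryos. In yolk sacs it had 1.16 to 245 around 6.81 and then 0 to 9.81 around 1.23, with 5 libraries at 0. The interaction of Gm10800 was -4.89 ± 0.91 (adjusted p = 0.00055), negative in 7 of 7 litters.

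**Figure D3:**
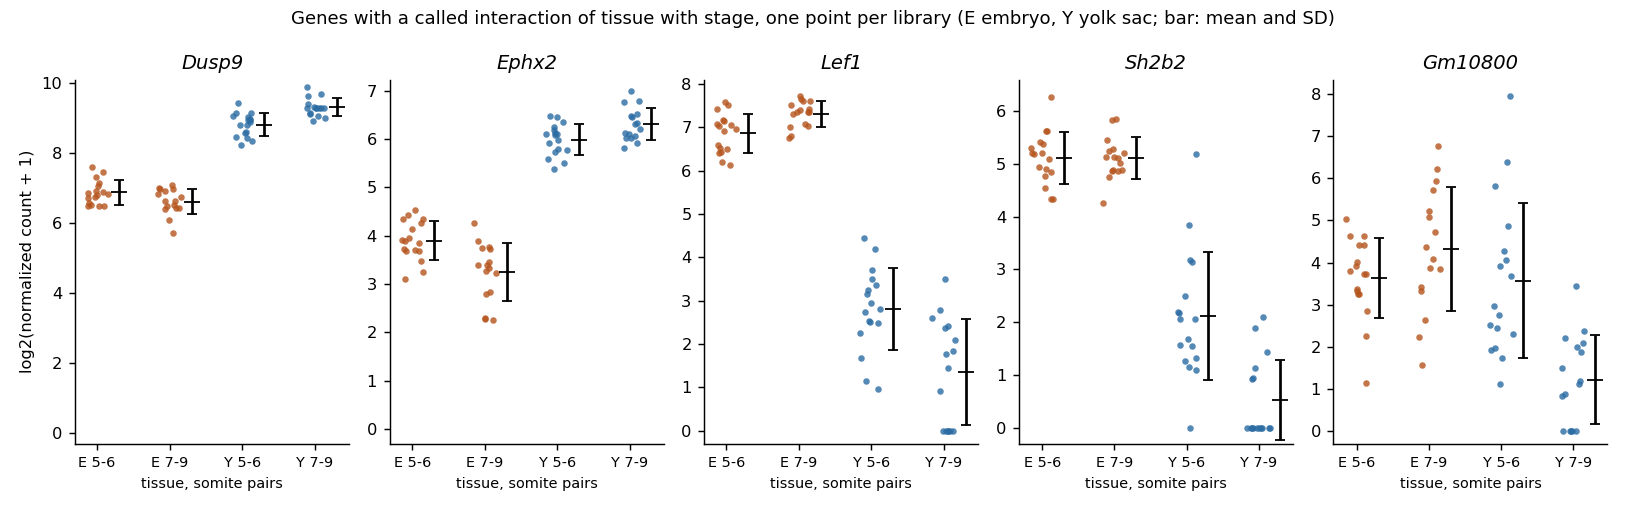
Log2 of the normalized count plus 1 of Dusp9, Ephx2, Lef1, Sh2b2 and Gm10800 in each of the 66 libraries, by tissue and stage, with the mean and standard deviation of each group beside the points. Dusp9 and Ephx2 are higher in yolk sacs, and Lef1 and Sh2b2 are higher in embryos, with 6 and 10 of 16 later yolk sacs at 0.

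Embryo and yolk sac of 1 conceptus are paired by label. With the conceptus as a block 2 genes were called (edgeR), of which Gm10800 (adjusted p = 0.036) was among these 5. In that fit Dusp9 had adjusted p = 0.091, Ephx2 0.087, Lef1 0.12 and Sh2b2 0.12. Without conceptus N28M05J 2 of the 5 remained, Sh2b2 (adjusted p = 0.025) and Gm10800 (0.00029), with Dusp9 and Ephx2 at 0.078 and Lef1 at 0.11, and without N28M07E only Gm10800 remained. Leaving out 1 litter at a time left between 1 and 52 genes called. Gm10800 kept its call in each of these 10 fits, while the adjusted p reached 0.14 for Dusp9 (call lost without N28M03, N28M06, N28M07, N28M22, N28M25 or N28M30), 0.17 for Ephx2 (without N24M21, N24M29, N28M03, N28M07, N28M22, N28M25 or N28M30), 0.19 for Lef1 (without N24M29, N28M03, N28M06, N28M07, N28M22, N28M25 or N28M30) and 0.12 for Sh2b2 (without N24M29, N28M03, N28M05, N28M07, N28M22, N28M25 or N28M30). The direction of all 5 held in each of 28 alternative fits. With terms for the litter in each tissue, so that stages were compared within litters, 252 genes were called (2.19%), 108 positive (0.939%) and 144 negative (1.25%), 4 of these 5 among them, and without N28M05J the same fit called 21 (0.182%), 7 positive (0.0608%) and 14 negative (0.122%), again with 4 of the 5; Sh2b2 was the gene lost in both. The additional calls in that last fit, which no rule on names had chosen, included the retinoic acid synthesis enzyme Aldh1a2, the limb and head mesenchyme factors Prrx1 and Prrx2, Hoxb3 and Fgf3 with negative values, and Epb41l3, Casp8 and Slc38a7 with positive ones. Yolk sac means were low for Aldh1a2 (3.02 and then 1.57 normalized counts), Prrx1 (6.82 and 2.69) and Prrx2 (9.18 and 4.79). In diabetic pregnancies Aldh1a2 (0.28), Prrx1 (0.12) and Slc38a7 (-0.18) had the opposite sign, and the other genes named here kept theirs.

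Of the 33 gene lists examined, the primitive erythroid markers (-1.88) and the globins (-1.83), which share 3 genes, had the lowest median interactions. The promoters of the embryonic genes Hbb-y (epsilon-like) and Hba-x (zeta) and of the alpha gene Hba-a1 are shown, as 250 bases before the start in GRCm38.p6 (RefSeq), because these genes rose in the embryo libraries by several fold. Capitals mark CACCC, the core of the site bound by KLF factors, and TGATAA, a form of the site bound by GATA factors, on either strand.
Hbb-y, chr7:103853208-103853457, minus strand: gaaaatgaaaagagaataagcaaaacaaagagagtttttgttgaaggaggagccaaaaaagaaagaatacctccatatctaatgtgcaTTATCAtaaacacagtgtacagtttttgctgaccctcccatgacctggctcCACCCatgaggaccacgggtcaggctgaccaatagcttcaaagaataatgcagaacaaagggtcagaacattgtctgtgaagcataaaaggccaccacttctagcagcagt
Hba-x, chr11:32276350-32276599, plus strand: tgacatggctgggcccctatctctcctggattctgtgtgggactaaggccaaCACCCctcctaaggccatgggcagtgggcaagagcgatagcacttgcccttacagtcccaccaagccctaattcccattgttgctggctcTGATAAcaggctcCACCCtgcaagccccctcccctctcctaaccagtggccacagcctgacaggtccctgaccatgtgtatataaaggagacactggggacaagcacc
Hba-a1, chr11:32283422-32283671, plus strand: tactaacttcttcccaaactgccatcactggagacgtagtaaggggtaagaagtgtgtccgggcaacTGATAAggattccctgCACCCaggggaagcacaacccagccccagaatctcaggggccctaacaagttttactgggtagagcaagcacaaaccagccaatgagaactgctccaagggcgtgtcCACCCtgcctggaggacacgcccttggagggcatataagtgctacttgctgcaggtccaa
CACCC was present 1 time in the Hbb-y window, 2 times in that of Hba-x and 2 times in that of Hba-a1, and 52.0% of 32851 promoters of this length held it. TGATAA was present 1 time in each of the 3 windows, as TTATCA on the printed strand of Hbb-y, and 7.94% of all promoters held it. AGATAA, another form of that site, was in none of the 3 and in 9.99% of all promoters. CACCC and AGATAA were the motifs planned for the search, and TGATAA was added outside that plan. Hbb-bh1, the third embryonic gene, is named only.

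In embryos Hbb-y had 1.33 to 13.9 normalized counts, median 7.16, at 5–6 somite pairs and 2.08 to 551, median 48.4, at 7–9. In yolk sacs it had 623 to 4412, median 1365, and then 1163 to 14674, median 4366. Of the later libraries, 11 of 16 embryos and 8 of 16 yolk sacs lay above every earlier one of their tissue. It rose by 3.87 ± 0.55 in embryos (adjusted p = 9.6e-07) and by 1.38 ± 0.38 in yolk sacs (adjusted p = 0.014). Hba-x rose by 3.34 ± 0.42 and 1.39 ± 0.30 (adjusted p = 1.9e-08 and 0.0014). Hbb-bh1 rose by 2.52 ± 0.39 in embryos (adjusted p = 2e-05) and Hba-a1, which shares reads with the near-identical Hba-a2, by 2.41 ± 0.57 (adjusted p = 0.0013), with yolk sac changes of 0.64 ± 0.33 and 0.63 ± 0.25 that did not pass the test. The adult beta genes Hbb-bs and Hbb-bt passed in neither tissue. All 6 globins tested, of 8 listed, had a negative interaction, with a median of -1.83 against -0.03 over all genes tested, but 0 of 6 passed. The values were -2.48 ± 0.67 for Hbb-y (adjusted p = 0.10), -1.95 ± 0.51 for Hba-x (0.092), -1.88 ± 0.51 for Hbb-bh1 (0.10) and -1.77 ± 0.62 for Hba-a1 (0.19), each negative in 6 of 7 litters. DESeq2 called Hbb-y (adjusted p = 0.045) and Hba-x (0.040), and leaving out litter N28M06 brought Hba-x to 0.044. With stages compared within litters Hba-x (0.049) and Hbb-bh1 (0.037) were called, and 0 of 6 without N28M05J, with Hba-x at 0.12 and nearly the same size (-1.99 in both fits).

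By somite number, the median of Hbb-y in embryos was 9.30, 5.09, 9.44, 51.3 and 97.1 normalized counts at 5, 6, 7, 8 and 9 pairs, and in yolk sacs 1294, 2820, 2437, 5076 and 7980. The spread among later embryos was wide. At 7 pairs they ran from 2.08 to 551, and at 9 pairs from 6.13 to 327, so that embryos of 1 count overlapped with those of another. The highest values belonged to embryo N24M21E, whose sum over 5 primitive erythroid markers was 1529 normalized counts and whose visceral endoderm sum, 1406, was also the highest among embryos. As a share of the own yolk sac, the erythroid sum of the embryo had a median of 0.340% at the earlier stage (range 0.196% to 0.919%) and 0.903% at the later (0.106% to 7.30%), while that of visceral endoderm markers went from 2.92% to 1.56%. In these bulk libraries more erythroid cells and more globin RNA per cell cannot be told apart. A duplicate library of a diabetic embryo of 8 pairs, D24M15G, gave 38.8 CPM of Hbb-y where the original gave 306. For Afp the duplicate gave 104 CPM where the original gave 343, while Sox2 had a ratio of 0.978 between them. In the yolk sac of the same conceptus Hbb-y had a ratio of 0.962. In the normal embryo N28M06C, of the earlier stage, the original and its duplicate gave 3.71 and 3.13 CPM of Hbb-y. Ratios were 1.37 for Hbb-bh1, 1.08 for Afp and 4.44 for Hba-x (48 and 11 counts). The part of such differences between duplicate libraries in the globin values of embryos was not tested.

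**Figure D4:**
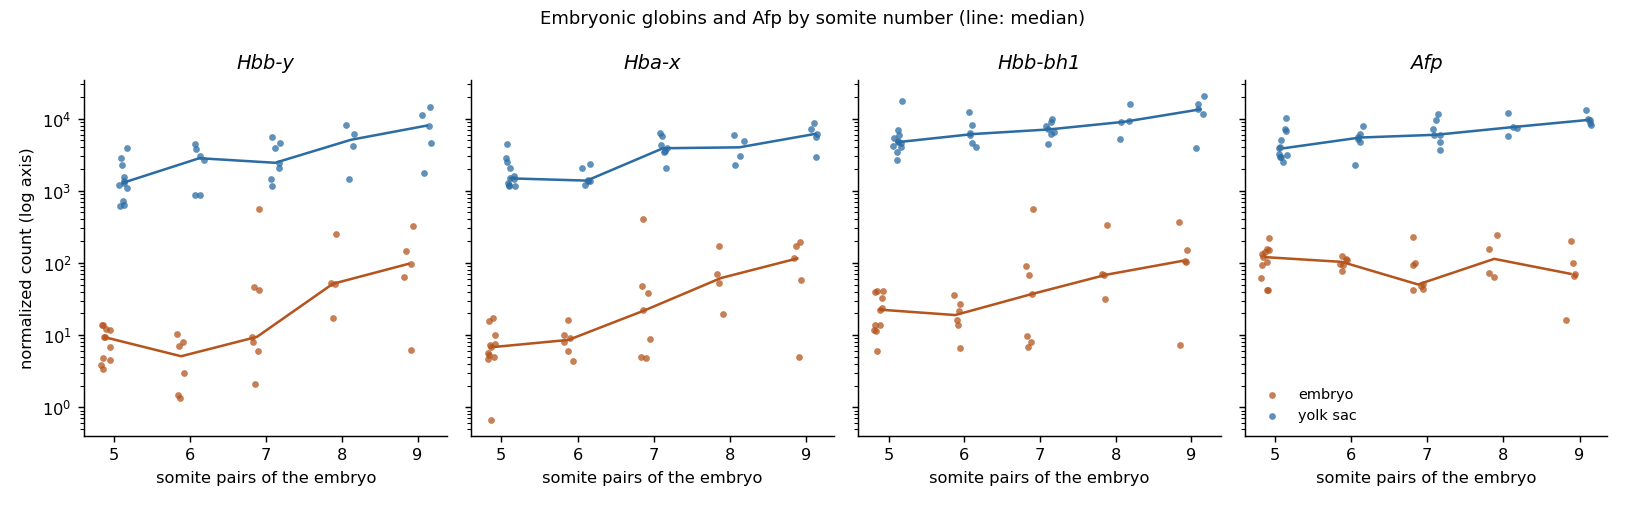
Normalized counts (log axis) of the globins Hbb-y, Hba-x and Hbb-bh1 and of Afp, the fetal serum protein, against the somite pairs of the embryo, 1 point per library, with a line through the median at each number in embryos (orange) and yolk sacs (blue). Embryo medians of Hbb-y go from 9.30 at 5 pairs to 97.1 at 9 pairs, and yolk sac medians from 1294 to 7980, with single embryos at 7 pairs spread from 2.08 to 551.

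Of 20 tested erythroid regulators and membrane proteins, 2 rose in embryos and 3 in yolk sacs, against 4.61% and 5.22% of all genes. The interaction was negative for 15 of 20, with a median of -0.23, and 0 passed. Gata1, the regulator of erythroid genes, rose by 1.59 in embryos (adjusted p = 0.048) and 0.49 in yolk sacs (adjusted p = 0.018). The red cell anion exchanger Slc4a1 rose in yolk sacs by 0.96. Of the 13 genes of heme synthesis, 4 rose in yolk sacs and 0 in embryos, against 5.22% and 4.61% of all genes. Among those that rose were Alas2, the first enzyme in erythroid cells (0.61), Ppox (0.63) and the mitochondrial glycine carrier Slc25a38 (0.60). All 13 had a positive interaction, with a median of 0.29, where 5238 of all 11507 genes were positive, and 0 passed. For Ppox it was 0.54 ± 0.29 (adjusted p = 0.44). Of 23 endothelial genes 4 rose and 2 fell in yolk sacs, against 5.22% and 4.48% of all genes. The rising ones included Lyve1 (0.89) and the angiopoietin receptor Tek (0.35), and Aplnr, the apelin receptor, rose in embryos (0.63) as in yolk sacs (0.53). Apln, its ligand, fell in yolk sacs by 0.65. Endothelial interactions had a median of -0.04, and 19 of 23 intervals lay within 2-fold, against 84.9% over all genes.

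Genes of the visceral endoderm had interactions of the opposite sign. Of 19 tested secreted proteins of this layer, 9 rose in yolk sacs (8 without N28M05J) and 0 fell, while 0 rose and 2 fell in embryos. Among all genes 5.22% rose in yolk sacs and 4.94% fell in embryos. All 19 secreted proteins had a positive interaction, between 0.20 and 1.74 with a median of 0.72, where 5238 of all 11507 genes were positive. Of the 19, 13 had an unadjusted p under 0.05 (edgeR) and 0 passed after adjustment. Afp, the fetal serum protein, had 42.5 to 223 normalized counts, median 111, in earlier and 15.9 to 244, median 72.0, in later embryos. In yolk sacs it had a median of 4719 (2287 to 10105) and then of 7865 (3646 to 13159). It rose in yolk sacs by 0.73 ± 0.22 (adjusted p = 0.022) and had a change of -0.13 ± 0.23 in embryos, for an interaction of 0.86 ± 0.32 (adjusted p = 0.27), positive in 7 of 7 litters. The apolipoprotein gene Apoa4 rose in yolk sacs by 0.64 ± 0.15 (adjusted p = 0.0041) with an interaction of 1.05 ± 0.33 (adjusted p = 0.17), also positive in 7 of 7 litters. Apoe, a lipoprotein ligand, showed the reverse split, falling by 0.51 ± 0.11 in embryos (adjusted p = 0.0025) with a yolk sac change of 0.16 ± 0.11, and its interaction of 0.67 ± 0.16 missed the threshold in edgeR (adjusted p = 0.074) and passed in DESeq2 (0.021). The retinol carrier Rbp4, Apoa1, Apoa2 and the fibrinogen chain Fga rose in yolk sacs by 0.59, 0.62, 0.75 and 0.79. The transcription factor Hnf4a, a regulator of this layer, rose there by 0.45. Of 13 tested endoderm transcription factors, however, 2 rose in yolk sacs, against 5.22% of all genes, and the median change there was 0.04. Their interaction was positive for 10 and negative for 3, where 5238 of all 11507 genes were positive, with a median of 0.21, and 0 passed.

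The absorptive side of the visceral endoderm was less uniform. Of 26 genes of endocytosis and lysosomes, 7 rose in yolk sacs and 5 fell in embryos, against 5.22% and 4.94% of all genes. The interaction was positive for 24 of the 26, with a median of 0.18, and for 5238 of all 11507 genes. Rising in yolk sacs were Lrpap1, a chaperone of the megalin family (0.40), the folate receptor Folr1 (0.51), the lysosomal proteases Ctsb (0.40) and Ctsz (0.45), the lipase Lipa (0.34), the lipoprotein receptor Scarb1 (0.39) and the Fc receptor Fcgrt (0.53). The cubilin partner Amn fell by 0.81 in embryos (adjusted p = 0.0081), and so did the adaptor Dab2 (by 0.32) and the proteases Lgmn (by 0.64), Ctsl (by 0.48) and Ctsd (by 0.31). Lrpap1 came nearest to a call, with an interaction of 0.63 ± 0.15 (adjusted p = 0.074, and 0.025 in DESeq2). The summed visceral endoderm markers of embryo libraries were at 2.92% and then 1.56% of those of their yolk sacs at the median. Medians of this sum were 647 and then 436 normalized counts in embryos, and 21802 and then 31490 in yolk sacs. The part of visceral endoderm left on the embryos in the embryo changes of these genes was not tested.

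Heart genes had mostly negative interactions, whose size moved with 1 conceptus. Over 30 tested heart genes the median change was 0.33 in embryos, with 4 risen, and -0.42 in yolk sacs, with 5 fallen and 1 risen. The interaction was negative for 27 of 30, with a median of -0.80. Over all genes 4.61% rose in embryos, 4.48% fell and 5.22% rose in yolk sacs, and 6269 of 11507 interactions were negative. In embryos the rising heart genes were the ventricular myosin light chain Myl2 (1.29), the atrial natriuretic peptide gene Nppa (1.67), the cardiac troponin I gene Tnni3 (1.04) and Smpx (0.84). In yolk sacs Ttn, Myh7, Actc1, Myl3 and Tpm1 fell. Without N28M05J the median interaction was -0.16, with 20 of 30 negative, the median change 0.29 in embryos and 0.14 in yolk sacs, and 0 heart genes fell in yolk sacs. Within litters 19 heart genes were called lower in the interaction, with a median of -1.46, and without N28M05J 1 was called, with a median of -0.74. In diabetic pregnancies 26 of 30 were negative, with a median of -1.16 and 2 called. The 10 embryo proper markers had a median of -0.66, of -0.04 without N28M05J, of -0.35 within litters without it, and of -1.33 in diabetic pregnancies, with 2 called there.

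Among genes that pattern the body axis, of 25 tested Hox genes 8 rose in embryos (Hoxc6, Hoxc8, Hoxc9, Hoxd4, Hoxd8, Hoxa7, Hoxa9 and Hoxb4), between 0.47 for Hoxb4 and 0.85 for Hoxa9, and 1, Hoxb3, fell in yolk sacs, a call that was lost without N28M05J. Over all genes 4.61% rose and 4.94% fell in embryos, and 4.48% fell in yolk sacs. The interaction was negative for 22 of the 25 Hox genes, with a median of -0.37, and for 6269 of all 11507 genes. Without N28M05J it was negative for 19 of the 25, with a median of -0.33. In diabetic pregnancies 12 of the 25 were positive and 13 negative, with a median of -0.02. Hoxb3 had 36.2 to 174 normalized counts, median 87.4, in earlier and 84.6 to 186, median 116, in later embryos, and 9.40 to 48.0, median 18.9, and then 4.20 to 36.8, median 11.7, in yolk sacs. Its interaction of -1.11 ± 0.27, negative in 7 of 7 litters, had an adjusted p of 0.074 in edgeR and 0.021 in DESeq2, which also called Hoxd4 (-1.49 ± 0.48, adjusted p = 0.045). Among 18 presomitic and tailbud genes the median was -0.33, and DESeq2 called Cdx4, a caudal factor (-2.59 ± 1.04), whose later yolk sacs were at 0 in 12 of 16 libraries. In diabetic pregnancies 9 of these 18 were positive and 9 negative, with a median of 0.03. Nrarp, a Notch feedback inhibitor, rose in embryos by 0.79 with a yolk sac change of 0.00, and Cdx1 fell in embryos by 0.68. The somite factor Tcf15 rose in embryos by 0.77. Of 16 neural crest factors 4 rose and 1 fell in embryos, the rising ones including Tfap2b (0.84), Sox10 (0.60) and the endothelin receptor Ednrb (0.82 in embryos and 0.54 in yolk sacs), and of 29 neural plate factors 3 rose in embryos, among them Zic1 (1.22) and Pax6 (0.43), against 4.61% of all genes, 1 fell there, and 4 fell in yolk sacs. Many of these genes had only a few counts in yolk sacs. The interval of the interaction lay within 2-fold for 11 of 25 Hox genes and 6 of 29 neural factors, against 84.9% of all genes.

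**Figure D5:**
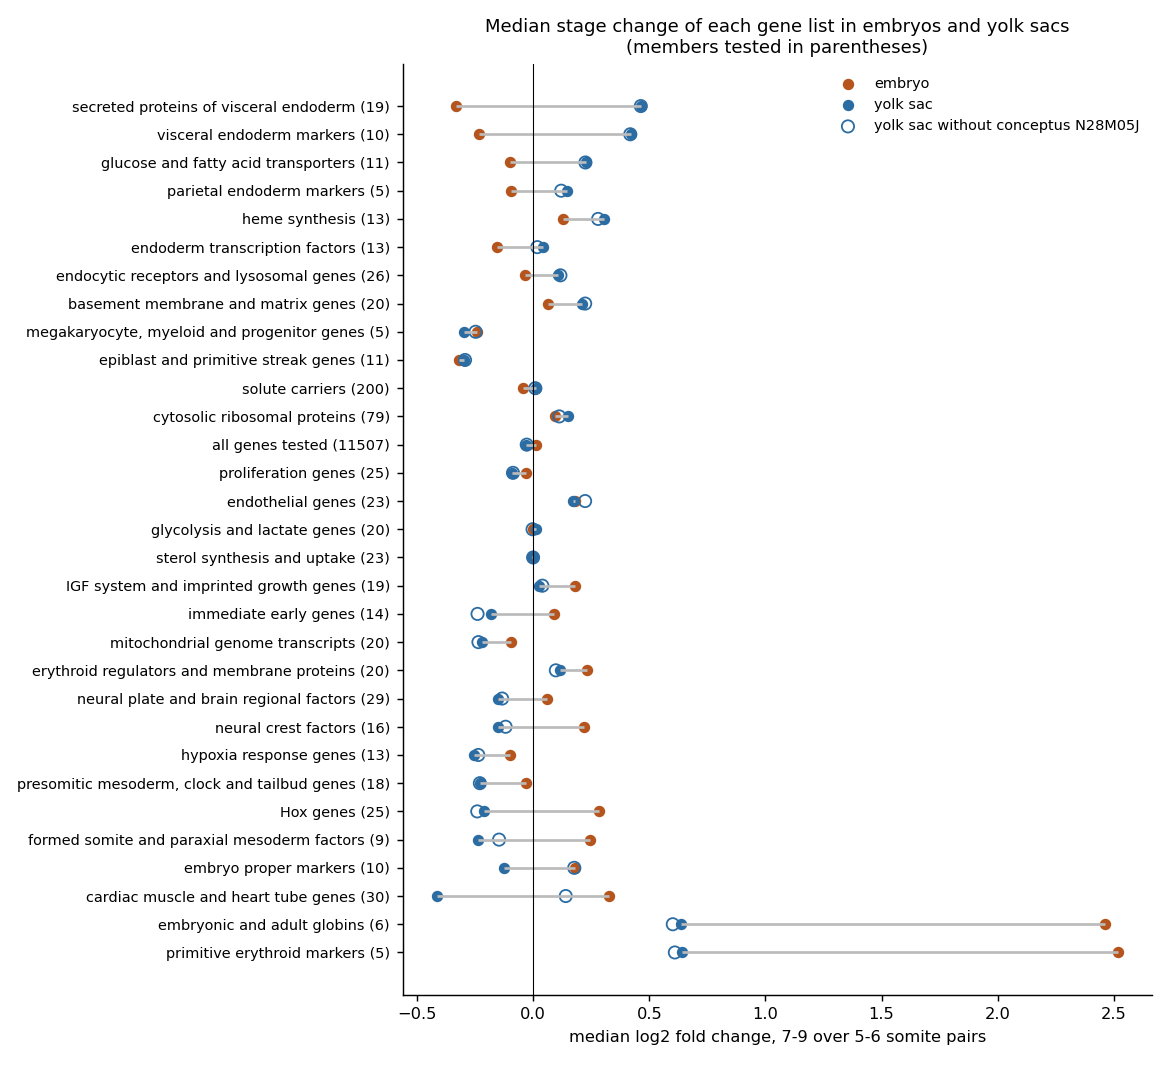
Median log2 change from 5–6 to 7–9 somite pairs over the tested members of each gene list with at least 5 of them, in embryos (orange) and yolk sacs (blue) joined by a line, with open circles for yolk sacs without conceptus N28M05J; lists are ordered by their median interaction. Embryo medians lie far to the right of yolk sac medians for the globins and the primitive erythroid markers, and the yolk sac median of the heart genes moves from -0.42 to 0.14 when N28M05J is left out.

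The study's own question concerned nutrient transporters, and 11 of its 22 glucose and fatty acid transporter genes could be tested. In yolk sacs 3 rose and in embryos 1 fell, against 5.22% and 4.94% of all genes. Of the 11 interactions 10 were positive, with a median of 0.39, where 5238 of all 11507 genes were positive, and 0 passed. The list was taken from that study. Slc2a3 (Glut3) had 1836 to 2978 normalized counts, median 2232, in earlier and 1486 to 2233, median 1743, in later embryos, against medians of 7774 and 8129 in yolk sacs. It fell by 0.31 ± 0.06 in embryos (adjusted p = 0.0010) and had a change of 0.08 ± 0.06 in yolk sacs, and its interaction of 0.40 ± 0.09 missed the threshold in edgeR (adjusted p = 0.067) and passed in DESeq2 (0.0019). Slc2a1 (Glut1) went from a median of 2003 to 1833 in embryos and from 2267 to 2732 in yolk sacs, with an interaction of 0.33 ± 0.11 (adjusted p = 0.23). The fatty acid translocase Cd36 rose in yolk sacs by 1.20 ± 0.36 (adjusted p = 0.016) from a low median of 2.95 to one of 5.46, the glucose transporter Slc2a10 (Glut10) by 1.14 ± 0.37 (adjusted p = 0.026) and the mitochondrial carnitine palmitoyltransferase Cpt2 by 0.38 ± 0.10 (adjusted p = 0.0088). Their interactions were 1.11 ± 0.43, 0.83 ± 0.44 and 0.39 ± 0.15. Slc2a4 (Glut4) was the exception, at -0.96 ± 0.58. The study listed Slc2a4 as not detected in yolk sacs and gave low counts of Slc2a10 there at both stages, so these values rest on few counts. Among 200 tested solute carriers the median interaction was 0.05, with 115 positive.

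In several groups most interactions were bounded within 2-fold, as they were for 84.9% of all genes tested. All 25 proliferation genes had intervals within 2-fold, with a median of -0.04. So did 75 of 79 ribosomal protein genes (median interaction 0.04) and 22 of 23 genes of sterol synthesis and uptake (median -0.07). Of the ribosomal genes 9 rose in each tissue, or 6 in yolk sacs without N28M05J, against 4.61% of all genes in embryos and 5.22% in yolk sacs. The matrix genes Col3a1 and Postn rose in both tissues, and Col1a2, Col5a1 and Col5a2 rose in yolk sacs; 18 of 20 matrix genes lay within 2-fold. Of 13 hypoxia response genes, 2 fell in embryos, Bnip3 and Ankrd37, and 3 fell in yolk sacs, Ddit4, Ndrg1 and Kdm3a, against 4.94% and 4.48% of all genes, with a median interaction of -0.31. Without N28M05J 5 fell in yolk sacs. Across all 33 lists, which held 703 of the tested genes, 0 had a member with a called interaction in the edgeR fit on the 4 group means, whereas members were called by DESeq2 and within litters.

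In diabetic pregnancies the same contrast called 213 of 11757 genes (1.81%), 84 positive (0.714%) and 129 negative (1.1%). All 5 genes called under normal conditions had the same direction there, and 2 passed: Ephx2, with an interaction of 1.26 ± 0.27 (adjusted p = 0.0073), and Sh2b2, with -1.48 ± 0.41 (adjusted p = 0.025). Dusp9 had 0.33 ± 0.18, Lef1 -0.19 ± 0.36 and Gm10800 -1.64 ± 0.72. The embryonic globins passed in diabetic pregnancies, Hba-x with -3.35 ± 0.69 (adjusted p = 0.0037), Hbb-bh1 with -2.95 ± 0.58 (0.0037) and Hbb-y with -3.10 ± 0.73 (0.014), as did Cd36 (1.21 ± 0.29) and Slc2a1 (0.57 ± 0.14). Over the 11 transporters, however, the diabetic median was 0.01, with 6 positive, against 0.39 and 10 positive in normal pregnancies. Among 14 immediate early genes, which respond rapidly to growth factors and stress, 5 were called positive in diabetic pregnancies (Fos, Fosb, Jun, Egr1 and Ier2), with a median of 0.83, against -0.17 in normal pregnancies. A direct test of the difference between the conditions called 0 of 12183 genes (0%) in edgeR, with 1333 at an unadjusted p under 0.05, and 1 in DESeq2, so that the larger number of calls in diabetic pregnancies was not shown to be a difference. Of the 209 diabetic calls that were tested in normal pregnancies, 166 had the same sign, against 52.8% of the 11455 genes tested in both, with normal medians of 0.14 and -0.20 where the diabetic ones were 0.76 and -0.79. Within litters the diabetic contrast called 0 genes, with 1922 at an unadjusted p under 0.05.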

How the data were processed

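Libraries were prepared by the submitters with the QuantSeq 3′ FWD kit (Lexogen) with unique molecular identifiers and run on a NextSeq instrument. The deposited values are raw counts of molecules per gene, which the authors made by aligning reads with STAR, collapsing them by molecular identifier and counting with HTSeq on mm10; versions are not given in the sources used here. The table holds 47643 genes and 136 libraries, with totals of 1033350 to 5658850 in the 66 libraries used, and 26 symbols that a spreadsheet had turned into dates were restored from gene identifiers. Genes were placed with GENCODE M21.

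Groups came from the sample labels. Genes passing filterByExpr (minimum count 10) were fitted with edgeR 4.0.16 (TMM, glmQLFit and glmQLFTest, R 4.3.3) on 4 group means of tissue and stage. Standard errors are Wald errors of the fitted contrast, with the variance scaled by the quasi-likelihood dispersion, and p-values were adjusted over all genes tested. The interaction fit was tested on simulated data with 200 changed genes. Normalized counts were computed with DESeq2 1.42.0 size factors over the 66 libraries. Signs within litters were read on log2 of the normalized count plus 1. CPM are counts scaled to the total of a library.

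Embryo and yolk sac of a conceptus share a label, so the conceptus served as block in an alternative fit. For N28M07E the sexes differ, so that a shared animal is in doubt there. The deviations of the 2 tissues from their group means had median correlations of 0.0754 (5–6 pairs) and 0.0440 (7–9 pairs). Of 33 pairs, N28M07E included, 15 lay above 0.1. Named genes were those with a called interaction (at most 12 per direction, reaching a group mean of 10 and keeping their sign within litters), up to 6 called members of each list, all tested transporters and the tissue markers; other members of the lists were named after their values were seen, and some genes are not reported here. The members and lists were chosen with earlier results of these data known. Promoters were taken from RefSeq (GRCm38.p6). Alternatives comprised other normalizations, filters and tools, fits with litter, sex, somite number or conceptus terms, sums per litter, and fits without single litters or concepti; those that leave out single concepti, the within-litter and 8-group fits of the diabetic libraries, and most of those of the stage changes were added after seeing the data.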

Additional observations from a re-analysis of the deposited data

Results flagged for a closer look

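The stage change differed between embryo and yolk sac, by the test of the interaction itself, for 5 genes. The interaction was 0.73 for Dusp9, 0.94 for Ephx2, -1.87 for Lef1, -2.60 for Sh2b2 and -4.89 for Gm10800. These genes lie on different chromosomes and belong to none of the lists described. In the diabetic libraries, which this test did not use, the 5 interactions had the same direction, and those of Ephx2 and Sh2b2 passed the threshold. That fit treated concepti of a litter as separate samples, and within litters the diabetic contrast called 0 genes. Levels of Lef1, Sh2b2 and Gm10800 in later yolk sacs were near 0, and the interactions had standard errors of 0.43, 0.69 and 0.91.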

How the results depend on the processing

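Limits of these data are the low counts of some genes in 1 tissue and the 10 litters, of which 7 hold both stages. Their part in the number of calls was not tested. The interaction in normal pregnancies called 5 genes. The count was 5 with RLE size factors, with TMM within tissue and with genes kept from a mean of 10 counts, and 4 with a sex term. It was 40 with DESeq2, 18 with the litter as a random block in limma, 8 with all 8 groups in 1 fit, 2 with somite number as a linear term, and 1 with no filter, with counts summed per litter or with the duplicates' counts added. The replicate block on the conceptus gave 2. Fits within litters gave 252, and 21 without N28M05J. In fits chosen after seeing the data, without conceptus N28M07J there were 12, without N28M05J 2, and without N28M07E, or without both, 1. Leaving out 1 litter at a time gave 1 to 52, with 1 when N28M03, N28M22, N28M25 or N28M30 was left out, 2 without N24M29 and 52 without N28M06.

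Stage changes in embryos numbered 1098, 175 with sums per litter, and 484 to 1319 without single litters (N28M06 and N23M31), with 695 without N24M21 and 518 without N28M05. In yolk sacs they numbered 1116, 743 with no filter, 383 with sums per litter, 659 within litters without N28M05J, and 409 to 1404 without single litters (N28M05 and N28M06), with 724 without N28M30. The diabetic interaction called 213 genes, 94 with no filter, 0 within litters (edgeR, 1922 at an unadjusted p under 0.05) and 257 with the replicate block. The test of the difference between conditions called 0, and 1 with DESeq2. The cause of these differences was not tested.

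Of 140 values for the 5 called genes, 79 kept direction and call and 61 kept the direction only. Of 756 values for 27 other named genes, 745 kept direction and side of the threshold and 11 passed it; 0 of either reversed. Normalized counts kept within 1 SD in 40 of 40 rescaled group means. Apart from the counts given here, the replicate block changed the calls of Dusp9, Ephx2, Lef1 and Sh2b2.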
